A study of Arabidopsis thaliana with 6 samples.

Results

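The XTH and expansin families, which loosen the growing cell wall, were examined in seedlings of the Arabidopsis thaliana *flu* mutant. The genes were taken by identifier from a list of 34, comprising 20 xyloglucan endotransglucosylase/hydrolase (XTH) genes, TCH4 among them, and 14 expansin genes. A gene was tested where at least 1 of the 6 libraries held 5 or more of its reads. That left 29 of the 34, with 16 XTH and 13 expansin genes, out of 10622 genes tested in a table of 11167. XTH6, XTH9, XTH16, XTH19 and EXLA1 had no row and were not analysed here. XTH32, EXPA6 and EXPB1 reached 5 reads only in libraries of the 0 h group, so these 3 genes could enter only by being higher there, and no gene entered through the 4 h group alone.

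RNA came from whole 2-week-old seedlings of the *flu* 1-1 mutant in the Col-0 ecotype. Before 30 min of light at 30 µE, the seedlings spent 0 h (the flu 0h group, 3 libraries) or 4 h (the flu 4h group, 3 libraries) in darkness in water. The *flu* mutant lacks the brake on chlorophyll precursor synthesis in the dark, so that protochlorophyllide builds up and yields singlet oxygen once the light returns. The bulk MARS-seq method was used, in which reads come from transcript 3′ ends. Both groups carry the mutation and both were lit, and there was no *flu* group kept in light for 4 h and no wild type, so darkness, time in water, time of day and the later photosensitised stress cannot be told apart. Growth light is given as continuous by the labels but as a light and dark cycle by the study's methods. For RNA extraction and qRT-PCR the methods describe 3 biological replicates, each a pool of whole seedlings. The labels do not say how the libraries relate to those pools or cultures, so p-values measure the spread between these libraries, and how much of it is technical is not known. In its methods the study assigns the series that holds these libraries to cycloheximide-treated wild type and another series to *flu*, whereas the sample labels, which were followed here, give *flu* for all 6. In whole seedlings fewer cells of a type and less RNA per cell cannot be told apart.

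Plant cells grow when the wall yields to turgor. Xyloglucan tethers cellulose microfibrils, and XTH enzymes cut a xyloglucan chain and join the new end to another chain or, in some members, to water. Expansins have no known hydrolytic activity and loosen the contacts between wall polymers, most actively at acid pH. The α-expansins act in acid growth, β-expansins are a separate branch best known from grasses, and expansin-like proteins share the fold without a shown loosening activity. The assignment of XTH genes to groups I, II and III was preset with the gene list and was not derived here from sequence.

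The catalytic site is shown for the 6 XTH genes that passed the test and for TCH4, because it is what unites genes that moved in opposite directions. Each line is 27 coding bases, or 9 codons, of the RefSeq TAIR10.1 assembly, read 5′ to 3′ on the coding strand. The capitals mark the codons for glutamate, aspartate and glutamate of the catalytic motif shared by this enzyme family.
XTH15: gacGAGataGACtttGAGtttctaggt
XTR6: gacGAGattGACtttGAGttcttggga
XTH24: gatGAGattGATtttGAGttcttgggt
TCH4: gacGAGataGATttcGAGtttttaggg
XTH33: gacGAGataGACataGAAttgttgggt
XTH31: gatGAGgtcGATatcGAGtttctaggg
XTH7: gacGAGcttGATtttGAGttcttagga

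In the order printed after XTH15, the stretches lie at chr4:13129072-13129098 on the plus strand, chr4:14820042-14820068, chr5:23307839-23307865, chr1:3480306-3480332, chr3:16447882-16447908 and chr4:17776854-17776880, the last 5 on the minus strand. That of XTH15 lies at chr4:8137782-8137808 on the minus strand. The 3 capital codons encode the same residues in all 16 XTH genes tested. Over the 27 bases the other 15 differed from XTH15 at 2 to 8 positions. XTH24, XTH33 and XTH7 each differed from it at 6, although the first pair rose and the last fell.

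Total reads per library ran from 1012425 to 2185464, and 3 reads were worth 1.37 to 2.97 CPM, which are reads scaled to a common library size. Differences below that level were not detectable, and intervals from read counts cover counting error only. Over all genes tested 16.6% passed the test at an adjusted p of 0.05 (edgeR quasi-likelihood test, Benjamini-Hochberg adjustment), 8.37% higher and 8.18% lower after 4 h of darkness, and in 32.3% the CPM of the groups did not overlap. The median log2 fold change over all genes was −0.06. Leaf and root genes were both present, as the label of whole seedlings implies. The summed level of the 9 root markers was 145 to 208 CPM at 0 h and 139 to 261 CPM at 4 h, and that of the 4 leaf markers 28643 to 33239 CPM and 25030 to 33056 CPM. Of the root markers LRX1, a root hair wall protein, was lower and the aquaporin TIP2;3 was higher (by edgeR but not by DESeq2), and of the leaf markers CA1, RCA and GLDP1 were lower. RBCS1A, which did not pass the test, held 85.9 to 92.6% of the leaf sum at a log2 fold change of −0.01. The median over the 4 leaf markers was −0.65. The root sum was carried by TIP2;3 and CASP1, the 2 root markers with positive fold changes. The other 7 had negative ones, of which only LRX1 passed the test, and the median log2 fold change of the 9 was −1.02. No root marker was at 0 in all libraries, and the part of these shifts in the results was not tested.

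Of the 29 genes, 13 passed the test, which is 44.8%, against 16.6% of all genes tested (8.37% higher and 8.18% lower). The list was chosen with earlier results of these data known. Its counts, shares and medians therefore describe the listed genes and not the whole families. The 5 that rose were XTH15, XTR6, XTH24, XTH33 and EXPA10. The 8 that fell were XTH7, XTH31, EXPA1, EXP3, EXPA4, EXPA6, EXPA8 and EXPB3. By family, 4 of 16 XTH genes rose and 2 fell, and 1 of 13 expansins rose and 6 fell. The difference between families was not tested. EXPA6, counted among the falls, had entered through its 0 h reads alone, and the calls of EXP3, EXPA4, EXPA6 and XTH33 were each lost under at least 1 alternative. The median log2 fold change was 0.03 over the XTH genes and −0.68 over the expansins, and −0.27 over both families. These medians were the same with the low-count genes at the ratio or bound of their reads. Those genes lay below the medians either way, so the medians could not have moved. Groups did not overlap in 19 genes, or 65.5%, of which 6 did not pass the test, against 32.3% without overlap over all genes tested. The number that rose was 8 without 0 h replicate 3, with 4 as the lowest count over the libraries left out, and the expansin median was −1.15 without 4 h replicate 3.

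**Figure D1:**
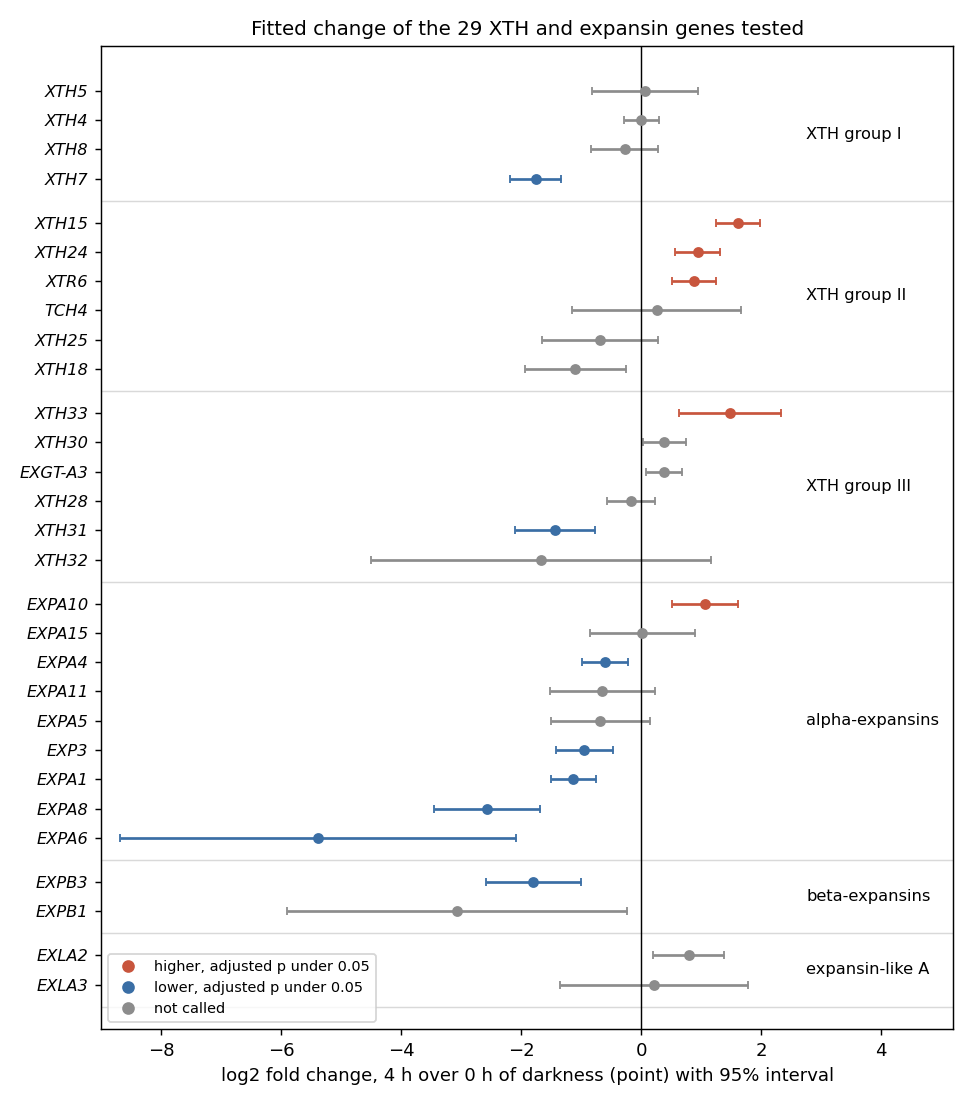
Fitted log2 fold change (x axis, 4 h over 0 h of darkness) of the 29 XTH and expansin genes tested, grouped by subfamily, with 95% intervals from the edgeR fit (3 libraries a group). Red marks the 5 genes that passed the test as higher, blue the 8 that passed as lower and grey the 16 that did not pass. EXPA6 had no read at 4 h, so its fitted point is not a measure of size.

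Of the 4 XTH genes that rose 3 lay in group II, where 6 were tested and none passed the test as lower. XTH18 and XTH25 of this group lay lower at 4 h without overlap, at log2 fold changes of −1.10 and −0.69, but did not pass. XTH15 (AT4G14130, also known as XTR7), an XTH associated with elongation growth in shade, lay at 80.1, 64.6 and 105 CPM in the 3 libraries at 0 h. At 4 h its level was 246, 261 and 256 CPM. Every 4 h library stood above every 0 h library and the 4 h values lay close together. The level rose 3.07-fold, a log2 fold change of 1.62 ± 0.18 (SE, n = 3 per group; adjusted p = 2.4e-07, edgeR). The gene lies at chr4:8137020-8138392 on the minus strand, and its 3′ end overlaps AT4G14120 on the opposite strand. The strand setting of the counting is not given in the sources used here, so reads of the pair cannot be told apart over the overlap.

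XTR6 (AT4G25810, XTH23, chr4:13128394-13129927) and XTH24 (AT4G30270, chr4:14819192-14820595) were the other genes of group II that rose. XTR6 had 72.8, 79.0 and 103 CPM at 0 h and 172, 143 and 150 CPM at 4 h. The groups did not overlap, and the log2 fold change was 0.88 ± 0.18 (SE; adjusted p = 0.00080, edgeR). XTH24, isolated under other names as a meristem-linked and a senescence-linked gene, had 52.6, 71.8 and 49.5 CPM at 0 h and 109, 118 and 109 CPM at 4 h. Its lowest 4 h value was again above its highest 0 h value, with a log2 fold change of 0.94 ± 0.19 (SE; adjusted p = 0.00070, edgeR).

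TCH4 (AT5G57560, XTH22), the classic touch-induced XTH, was near the limit of detection. Its level was 5.50, 2.05 and 1.38 CPM at 0 h and 4.55, 3.61 and 1.98 CPM at 4 h. These ranges overlapped throughout and rested on 15 and 16 reads in all. The log2 fold change was 0.26 with a 95% interval of −1.15 to 1.67 (adjusted p = 0.85, edgeR), which includes the fold changes of XTH15, XTR6 and XTH24, so neither a change nor a difference from these genes was detectable at this depth. By coding sequence XTR6 was the closest relative of TCH4 in the genome's XTH family, with 81.9% identity. TCH3, a calmodulin-like touch gene and the only gene of the touch list with a row, had 848, 898 and 1039 CPM at 0 h and 1965, 1730 and 1708 CPM at 4 h. It rose by 0.96 on the log2 scale (adjusted p = 2.0e-05, edgeR), with no overlap between groups.

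Some genes of group II are neighbours. XTH24 and XTH18 (AT4G30280, chr4:14825757-14827211) lie next to each other on chromosome 4. XTH18, one of a set of root-expressed XTH genes, had 9.17, 12.8 and 11.0 CPM at 0 h and 5.01, 4.52 and 5.93 CPM at 4 h. Its 4 h values all lay below its 0 h values, but with a log2 fold change of −1.10 ± 0.41 (SE) the adjusted p was 0.066 (edgeR). It was 0.040 with the stricter filterByExpr filter on low counts. The interval for XTH18, −1.94 to −0.26, did not overlap that for XTH24, 0.56 to 1.32. XTH18 shares 92.2% of its coding sequence with XTH17 but its last 300 transcript bases share 76.3%, the highest such value among the genes here, and XTH17 had no row. XTH25, next to TCH4 on chromosome 5, had a log2 fold change of −0.69 (95% interval −1.66 to 0.27; adjusted p = 0.36), and its interval overlapped that of TCH4.

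In group I the counted level was led by XTH4 (AT2G06850), an XTH linked to vascular growth. It had 368, 395 and 401 CPM at 0 h and 358, 395 and 414 CPM at 4 h. The groups overlapped almost fully, and the log2 fold change was 0.00 with a 95% interval of −0.29 to 0.30 (adjusted p = 0.997, edgeR). XTH7 (AT4G37800, chr4:17775370-17777445) was the gene of the group that passed the test. It fell from 108, 138 and 149 CPM to 30.0, 42.4 and 47.5 CPM. Even the lowest 0 h library lay well above the highest 4 h library, and the level was 3.39-fold lower, at −1.76 ± 0.21 (log2, SE; adjusted p = 7.1e-07, edgeR). XTH5 and XTH8 had log2 fold changes of 0.07 and −0.27 and did not pass the test.

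Group III moved in both directions. XTH31 (AT3G44990, chr3:16446935-16448844), whose protein acts mainly as a hydrolase on xyloglucan, had 21.4, 20.0 and 24.8 CPM at 0 h and 6.37, 9.03 and 9.89 CPM at 4 h. The groups did not overlap, and the level fell by 1.43 on the log2 scale (SE 0.33; adjusted p = 0.0027, edgeR). XTH33 (AT1G10550, chr1:3479066-3481041) had 9.78, 3.08 and 4.82 CPM at 0 h and 11.4, 19.0 and 20.8 CPM at 4 h. The highest 0 h library, replicate 1, came close to the lowest 4 h library, also labelled replicate 1. The log2 fold change was 1.48 ± 0.42 (SE; adjusted p = 0.013, edgeR), and the call was lost without 0 h replicate 2, 4 h replicate 2 or 4 h replicate 3, with adjusted p values of 0.066, 0.058 and 0.065.

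The most counted gene of group III was EXGT-A3 (AT2G01850, XTH27), which is known from the development of leaf veins. It had 328, 303 and 383 CPM at 0 h and 399, 451 and 472 CPM at 4 h. The groups were separated only narrowly, and the log2 fold change of 0.38 had an adjusted p of 0.081 (edgeR). EXGT-A3 and XTH30, with a log2 fold change of 0.38 (adjusted p = 0.14), both passed the test without 0 h replicate 3, with adjusted p values of 0.043 and 0.039. XTH28, the closest relative of EXGT-A3 with 78.6% coding identity, had −0.17 (adjusted p = 0.61). XTH32 had 8 reads at 0 h and 2 at 4 h. The ratio of scaled reads, 0 h over 4 h, was 3.43 and its 95% counting interval 0.684 to 33.1.

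Among the 9 α-expansins 5 fell and 1 rose. EXPA1 (AT1G69530, chr1:26141726-26143538), a widely expressed α-expansin that is also active in guard cells, had 98.4, 115 and 109 CPM at 0 h and 45.1, 53.3 and 50.4 CPM at 4 h. The groups lay far apart compared with the spread inside each. The level was 2.19-fold lower, at −1.13 ± 0.18 (log2, SE; adjusted p = 8.2e-05, edgeR). EXPA8 (AT2G40610, chr2:16948791-16950705) had 18.3, 28.2 and 23.4 CPM at 0 h and 1.37, 8.13 and 3.96 CPM at 4 h. All 4 h libraries were below all 0 h libraries, while 4 h replicate 1 held only 3 reads. The log2 fold change was −2.57 ± 0.43 (SE; adjusted p = 0.00013, edgeR), and was −1.92 without 4 h replicate 1 and −3.33 without 4 h replicate 2.

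EXP3 (AT2G37640, EXPA3) and EXPA4 (AT2G39700) showed smaller falls. EXP3 had 55.6, 86.7 and 75.0 CPM at 0 h and 27.3, 37.0 and 52.4 CPM at 4 h. The highest 4 h library came near the lowest 0 h library, and the log2 fold change was −0.95 ± 0.23 (SE; adjusted p = 0.0048, edgeR). Without 4 h replicate 1 the call was lost, at −0.70 (adjusted p = 0.056). EXPA4 had 74.6, 77.4 and 73.6 CPM at 0 h and 52.3, 45.1 and 50.4 CPM at 4 h. The spread inside each group was small, and the log2 fold change was −0.60 ± 0.19 (SE; adjusted p = 0.025, edgeR). The EXPA4 call was lost with DESeq2 (adjusted p = 0.056) and without 0 h replicate 1, 0 h replicate 2 or 4 h replicate 2 (0.071, 0.066 and 0.11).

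EXPA6 (AT2G28950) had 5, 3 and 8 reads at 0 h and none in any 4 h library. Set against a floor of 3 reads over the whole 4 h group, its scaled 0 h reads were 4.57-fold higher. That value leaves out counting error, and the lower 95% counting limit of the ratio was 3.30 (adjusted p = 0.021, edgeR). EXPA6 had passed the filter only through the group where it was high. The call was lost without 0 h replicate 1, 0 h replicate 3, 4 h replicate 1 or 4 h replicate 2 (adjusted p of 0.054, 0.093, 0.091 and 0.058), and DESeq2 gave no adjusted p. EXPA5, known for brassinosteroid-related growth, EXPA11 and EXPA15 did not pass the test, at log2 fold changes of −0.68, −0.65 and 0.02.

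EXPA10 (AT1G26770, chr1:9259432-9261313), known from leaf and petiole growth, was the expansin that rose. It had 19.0, 11.8 and 17.9 CPM at 0 h and 33.2, 37.9 and 29.7 CPM at 4 h. The groups did not overlap, and the log2 fold change was 1.06 ± 0.27 (SE; adjusted p = 0.0059, edgeR). EXPA1 and EXPA10 were each other's closest relatives by coding sequence, with 78.9% identity, and their intervals, −1.51 to −0.76 and 0.52 to 1.61, did not overlap. The 250 bases before each gene's start (RefSeq, TAIR10.1) are shown because this pair moved in opposite directions. The capitals mark the 1 run of 10 or more identical bases that the windows share outside runs of mainly 1 base. It has 14 bases and begins 186 bases before the start of EXPA1 and 116 before that of EXPA10.
EXPA1, chr1:26141476-26141725, plus strand: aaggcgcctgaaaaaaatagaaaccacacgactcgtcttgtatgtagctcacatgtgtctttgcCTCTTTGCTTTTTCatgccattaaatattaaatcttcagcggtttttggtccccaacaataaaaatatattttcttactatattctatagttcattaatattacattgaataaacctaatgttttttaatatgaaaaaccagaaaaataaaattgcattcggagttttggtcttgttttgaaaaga
EXPA10, chr1:9259182-9259431, plus strand: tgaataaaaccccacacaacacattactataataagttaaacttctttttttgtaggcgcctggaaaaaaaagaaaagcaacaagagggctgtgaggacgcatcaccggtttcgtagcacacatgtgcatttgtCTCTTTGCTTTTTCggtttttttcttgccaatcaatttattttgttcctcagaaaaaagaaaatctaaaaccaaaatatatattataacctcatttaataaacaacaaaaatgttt

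In the same windows of all 29 genes 8 short motifs were searched on both strands. The brassinosteroid response element CGTGTG was in 6 of the 29 and in 5.37% of 27443 gene windows. Among the 6 were XTR6, which rose, and EXPA1 and EXPA6, which fell. The variant CGTGCG of this element was in EXPB3 alone, and in 1.57% of all windows. The auxin response element TGTCTC was in 3 and in 10.9% of all, and its carriers included EXPA10, which rose, and EXPA6, which fell. The W-box forms TTGACC and TTGACT, bound by WRKY factors, were in 5 and 4, against 12.2% and 19.1% of all, and EXPA8, which fell, and EXLA3, which did not pass the test, held both. CGCGTT, the core of a rapid stress response element, was in 3 and in 2.59% of all. The G-box CACGTG and the GCC box GCCGCC were in none of the 29, and in 6.49% and 1.87% of all windows. In 14 of the 29 windows, including those of XTH7, XTH15, XTH24 and XTH31, there was no match. These are matches of letters only, and motifs that share letters, such as CACGTG and CGTGTG, may overlap.

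**Figure D2:**
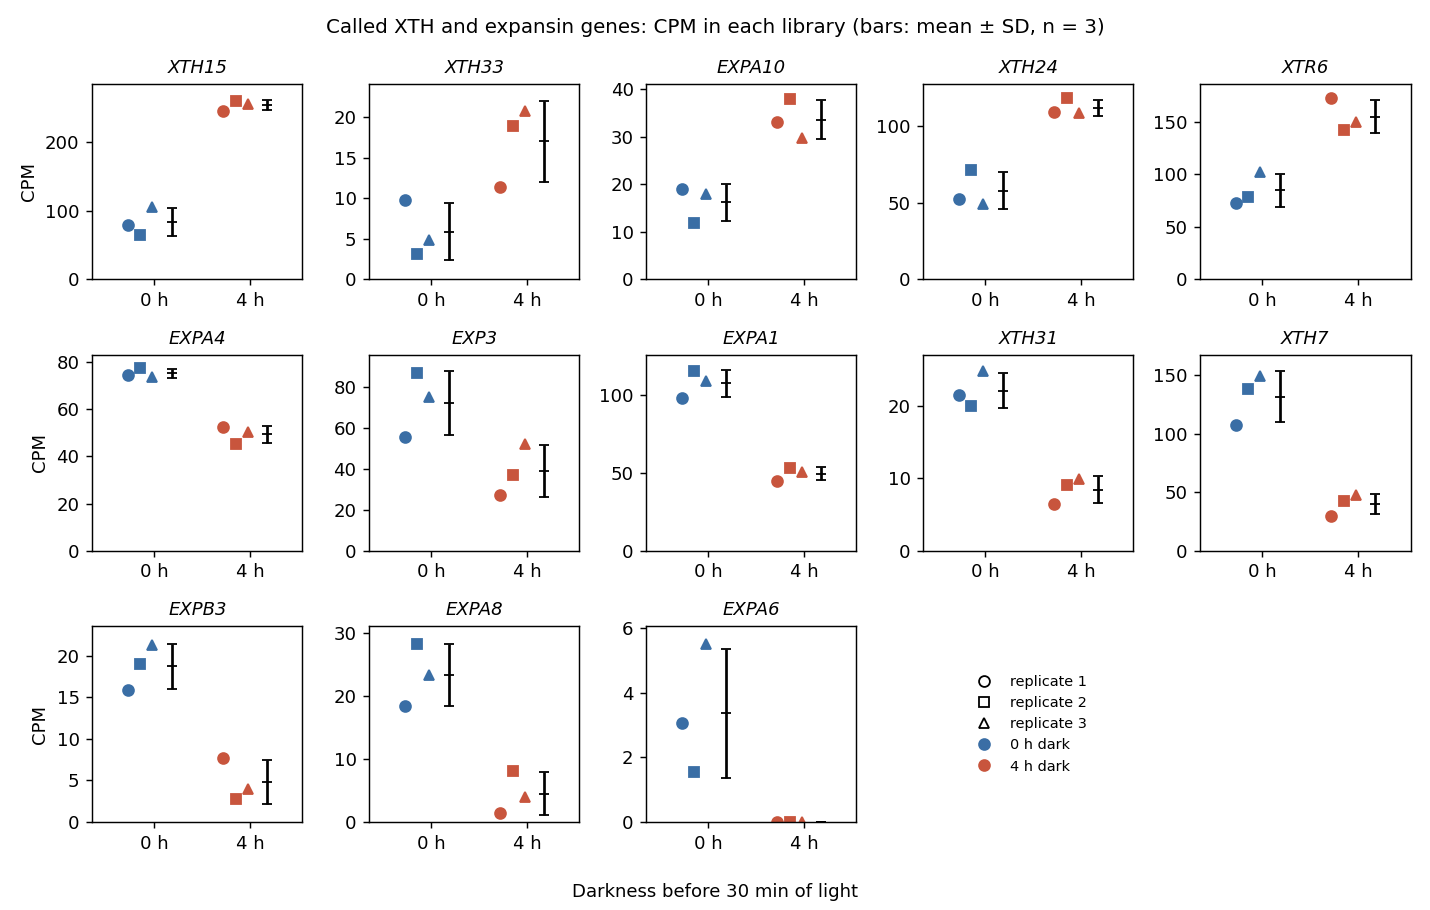
CPM (y axes, from 0, each panel with its own scale) of the 13 genes that passed the test in each library at 0 h (blue) and 4 h (red), with symbols for the replicate number and bars for mean ± SD of 3 libraries. Genes run from XTH15, the largest rise, to EXPA6, which had no read at 4 h, and in none of the panels do the groups overlap.

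The β-expansins were low. EXPB3 (AT4G28250, chr4:13999625-14002124) had 15.9, 19.0 and 21.3 CPM at 0 h and 7.74, 2.71 and 3.96 CPM at 4 h. The groups did not overlap. The level fell by 1.79 on the log2 scale (SE 0.38; adjusted p = 0.0015, edgeR) and had a log2 fold change of −2.46 without 4 h replicate 1, the highest of its group. EXPB1 had 13 reads at 0 h, all in replicates 1 and 2, and 1 read at 4 h. Scaled for depth, 0 h exceeded 4 h 11.1-fold (95% counting interval 1.67 to 473), and the adjusted p was 0.14 (edgeR).

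Of the expansin-like genes EXLA2 (AT4G38400) had 13.5, 13.3 and 22.7 CPM at 0 h and 23.2, 28.9 and 34.6 CPM at 4 h. The groups only just failed to overlap, because 0 h replicate 3 lay near the lowest 4 h library. The log2 fold change was 0.79 ± 0.29 (SE; adjusted p = 0.058, edgeR). The gene passed the test without 0 h replicate 3, at 1.08 (adjusted p = 0.019), and without 4 h replicate 1, at 0.96 (adjusted p = 0.041). EXLA3 had 12 reads in each group and a log2 fold change of 0.22 (adjusted p = 0.89).

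Summed over genes, the XTH level was higher and the expansin level lower at 4 h. The 16 XTH genes together had 1321, 1300 and 1546 CPM at 0 h and 1611, 1708 and 1772 CPM at 4 h. The 13 expansins had 338, 393 and 376 CPM at 0 h and 215, 235 and 257 CPM at 4 h. Neither sum overlapped between groups, and the ratio of means was 1.22 for the XTH genes and 0.638 for the expansins. EXGT-A3 held 23.3 to 26.6% of the XTH sum and EXPA1 19.6 to 29.3% of the expansin sum. Without XTH4 and EXGT-A3 the XTH sum was 663 ± 86.5 CPM at 0 h and 867 ± 16.8 CPM at 4 h (SD, n = 3), again without overlap. That sum still held XTH15, at a mean of 83.3 CPM at 0 h and 254 CPM at 4 h. The gene made up 10.7 to 30.3% of it, and most of the difference between the group means was that of XTH15. With XTH15 left out, this sum and the sum of all other XTH genes tested both overlapped between groups. Since 3′-end reads mark 1 end per transcript, these sums were not divided by gene length. They are given without a test, and they move with the same genes as the counts of calls.

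**Figure D3:**
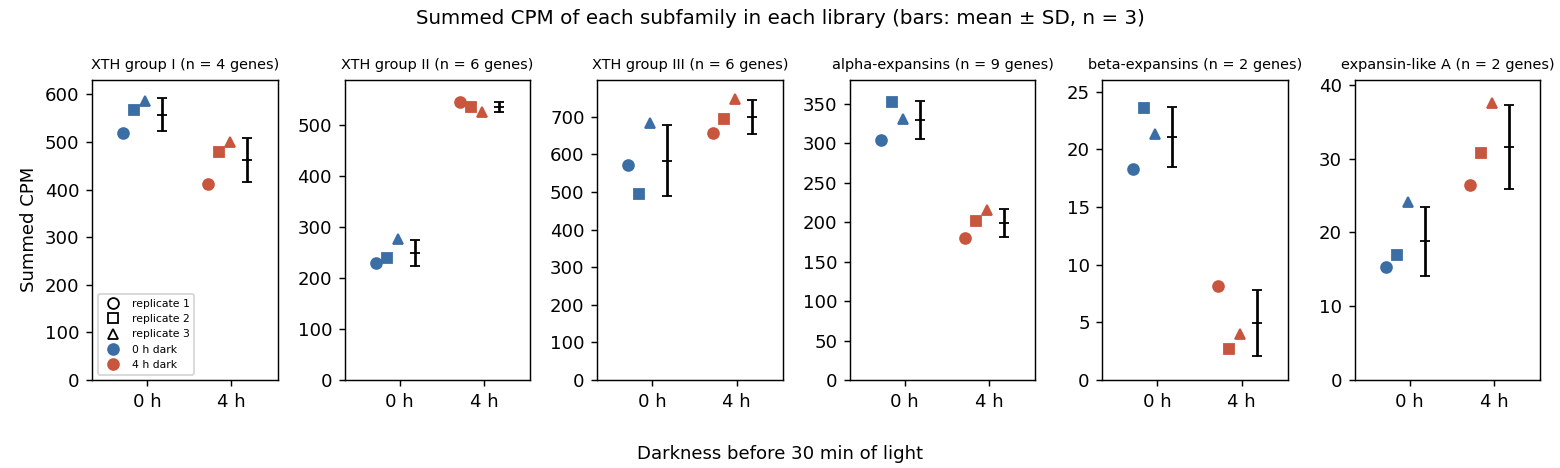
Summed CPM (y axes, from 0, each panel with its own scale) of the genes of each subfamily in each library at 0 h (blue) and 4 h (red), with symbols for the replicate number and bars for mean ± SD of 3 libraries. XTH group II lay at 248 ± 25.2 CPM at 0 h and 534 ± 9.39 CPM at 4 h, the α-expansins at 329 ± 24.2 and 199 ± 17.8 CPM, and only group III overlapped between groups.

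By subfamily the ratio of the summed means was 2.16 for XTH group II, 0.831 for group I and 1.20 for group III. It was 0.604 for the α-expansins, 0.235 for the β-expansins and 1.68 for the expansin-like genes. XTH15 held 27.2 to 48.8% of the group II sum. XTH4, which did not pass the test, held 68.4 to 87.2% of the group I sum, while XTH7 went from a mean of 132 to 40.0 CPM. EXGT-A3 held 56.0 to 65.0% of the group III sum and EXPA1 23.4 to 33.1% of the α-expansin sum. EXPB3 held 80.4 to 100% of the β-expansin sum, and EXLA2, which did not pass the test, 78.8 to 94.3% of the expansin-like sum.

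Among the remaining XTH and expansin genes of the genome that were tested, no call was made by edgeR or by DESeq2. The listed genes had been chosen with earlier results of these data known. The lack of calls here therefore cannot be set against their share of calls as a difference between the sets. For scale, 16.6% of all 10622 genes tested passed, and 3039 had an unadjusted p under 0.05 (edgeR). Of 4 further XTH genes tested none passed, at a median log2 fold change of −0.60, and 0 of them had an unadjusted p under 0.05 (edgeR). Of 7 further expansins none passed, at a median of −0.34, with 1 at an unadjusted p under 0.05. That gene was EXPA20, with 26.3, 26.2 and 34.4 CPM at 0 h and 30.5, 40.6 and 64.3 CPM at 4 h (adjusted p = 0.12). The root hair expansins EXPA7 and EXPA18 had log2 fold changes of −0.62 and −1.02, neither past the test (adjusted p of 0.45 and 0.18).

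Enzymes that make and trim xyloglucan, the substrate of the XTH proteins, showed 1 call among 10 genes. That is 10%, against 16.6% of all genes tested. XT1, a xylosyltransferase that adds the first side-chain sugars, rose from 33.6, 44.1 and 44.7 CPM to 82.4, 68.6 and 79.1 CPM. It did so without overlap, with a log2 fold change of 0.91 ± 0.20 (SE; adjusted p = 0.0016, edgeR). Its partner XT2 had −0.69 (adjusted p = 0.18), and the median over the 10 was −0.07.

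In primary-wall cellulose synthesis 1 of 8 genes rose and 1 fell, or 25% called against 16.6% of all genes tested. GH9A1, the KORRIGAN endoglucanase of the synthase complex, rose by 0.65 on the log2 scale (adjusted p = 0.0023), and CSI1, which links the complex to microtubules, fell by 1.01 (adjusted p = 0.028). The synthase subunit gene CESA1 had 0.40 (adjusted p = 0.079). The list thus held opposite calls at a median of 0.12, and the call of CSI1 was not made by DESeq2.

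The plasma membrane proton pumps acidify the wall, the condition in which expansins act. HA2 had 36.1, 70.3 and 34.4 CPM at 0 h and 29.1, 16.3 and 17.8 CPM at 4 h, and fell by 1.10 on the log2 scale (adjusted p = 0.0073, edgeR). HA3 fell by 1.17 (adjusted p = 0.027). HA1, the most counted pump, had a log2 fold change of −0.32 (adjusted p = 0.18), and its groups overlapped. Thus 2 of the 3 pumps tested were lower, or 66.7% called, against 16.6% of all genes tested (8.18% lower). Of these DESeq2 called HA2 alone. The SAUR growth genes of that list had no row and were not analysed here.

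Of 7 brassinosteroid genes and growth bHLH factors tested, CPD, an enzyme of brassinosteroid synthesis, rose by 0.52 on the log2 scale (adjusted p = 0.012). BEE1, a brassinosteroid-induced bHLH factor, had a log2 fold change of 1.16 and an adjusted p of 0.050, just short of the threshold. BES1 went the other way, at −0.41 without overlap between groups, and did not pass (adjusted p = 0.15, edgeR). Of 6 pectin methylesterases, which alter pectin charge and stiffness, PME1 rose by 0.59 (adjusted p = 0.012). In both lists the other genes did not pass the test, and the list medians were 0.22 and −0.13. The shares called, 14.3% and 16.7%, were near the 16.6% of all genes tested.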

How the data were processed

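In all, 6 libraries of whole *flu* seedlings, 3 per group, were used, with groups and replicate numbers from the sample titles, which disagree with the series assignment in the study's methods. Tools named in the submitters' processing notes are STAR, HTSeq, DESeq2, DESeq, cutadapt 1.8.3 and bcl2fastq 2.17.1.14. Raw whole-number counts per gene were deposited without a filter on unique molecular identifiers, so amplification copies may be among them. Beside these, the authors deposited a signal of counts divided by a size factor, used here as an alternative scaling, and regularised log2 values, also as the authors deposited them, which were not used.

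Genes with 5 or more reads in at least 1 library were fitted with edgeR 4.0.16 (R 4.3.3; TMM scaling, quasi-likelihood test, a single group term), with Benjamini-Hochberg adjustment over all 10622 genes at 0.05. CPM use TMM-scaled library sizes. Intervals are 95%. A group at 0 was set against a floor of 3 reads over the group, and a group of 1 to 3 reads was given an exact counting interval. The fit was tested on simulated data. The members and lists were chosen with earlier results of these data known. Every called member, TCH4 and the most counted member of each subfamily are named with values in each library, and up to 3 genes of each other list by smallest p. XTH18, EXLA3, the low-count members, EXPA7, EXPA18 and EXPA20 were added after their values were seen, as was the printed EXPA1 and EXPA10 pair. Of the list genes, 1 was dropped because its identifier carries another symbol. Names, positions and sequences came from RefSeq TAIR10.1, which may differ from the annotation used for counting, and counts do not separate near-identical copies. The alternatives were DESeq2 1.42.0, other scalings and filters, the replicate number as a block and leaving out each library. Figures used matplotlib 3.10.9 in Python 3.11.15.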

Additional observations from a re-analysis of the deposited data

How the results depend on the processing

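Of the 13 genes that passed the test, 9 passed it under every alternative that tested them, namely XTH7, XTH15, XTR6, XTH24, XTH31, EXPA1, EXPA8, EXPA10 and EXPB3. XTH33, EXP3, EXPA4 and EXPA6 were lost under at least 1, and XTH18, EXGT-A3, XTH30 and EXLA2 passed under at least 1. No member changed direction while past the threshold. Leaving out each library in turn gave 4 to 8 higher members, with 8 without 0 h replicate 3, and 6 to 8 lower members. The expansin median then lay between −0.54 and −1.15, the last without 4 h replicate 3, and the XTH median between −0.08 and 0.04. The cause of these shifts was not tested. The XTH median was also −0.01 with filterByExpr, so its sign changed with the setting. DESeq2 gave 5 higher and 6 lower members. With the replicate block 6 members were higher and 8 lower, the added one being EXLA2 (log2 fold change 0.83, adjusted p = 0.029). The correlation of same-numbered libraries was 0.00, 0.04 and 0.07 over 7456 genes, so the numbers were not taken to pair the samples. Other scalings, the filters and the block moved shared genes by a median of at most 0.04 on the log2 scale. The median over all genes tested went from −0.06 to −0.01 with filterByExpr, which tests fewer genes. Members under about 5 CPM, TCH4 and EXLA3 among them, were limited by depth.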
